A study of Mus musculus with 8 samples.

Results

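The peroxisome proliferator-activated receptors (PPARs) and a set of their lipid-responsive target genes were examined in atrophying mouse muscle. The set held 9 genes, the receptors Ppara, Ppard and Pparg and the targets Angptl4, Fabp3, Plin2, Ucp3, Ucp2 and Pdk4, and each of the 9 had 1 probe set among the 21212 on the arrays. RNA came from the gastrocnemius and plantaris muscles of female wild type C57BL/6J mice, 7 weeks old and housed 1 per cage. In 4 mice the hind limbs were kept off the cage floor for 5 days (unloaded, HU), and 4 mice stayed on their feet (weight bearing, WB). Each mouse gave 1 array, and the values are log2 expression levels after robust multi-array analysis (RMA), and levels of different genes are not comparable on this scale. The genes were chosen with results of this same contrast known, so their differences between the groups are described without a p-value.

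PPARs are nuclear receptors that fatty acids and their derivatives switch on. Each pairs with a retinoid X receptor (RXR) and binds DNA at a direct repeat of the motif AGGTCA with 1 base between the copies (DR1), near genes that take up, store and burn fat. In muscle the target genes are known to rise with fasting and exercise, when fatty acids are the main fuel. Ppara is best known from oxidative tissues, Ppard is the prevailing isotype of skeletal muscle, and Pparg drives the formation of fat cells.

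The sequence just before the start of 4 target genes is shown because these genes are lipid-responsive and 3 of them were lower in every unloaded array, while Ucp2, the direct neighbour of Ucp3 among protein-coding genes on chromosome 7, did not. The windows are the 250 bases before the RefSeq start (build GRCm38.p6), 5′ to 3′ along the gene, at chr7:100472741-100472990, plus strand for Ucp3, chr7:100493108-100493357, plus strand for Ucp2, chr4:86670060-86670309, minus strand for Plin2 and chr4:130308488-130308737, plus strand for Fabp3. Capitals mark the motif AGGTCA or its reverse complement TGACCT.
Ucp3: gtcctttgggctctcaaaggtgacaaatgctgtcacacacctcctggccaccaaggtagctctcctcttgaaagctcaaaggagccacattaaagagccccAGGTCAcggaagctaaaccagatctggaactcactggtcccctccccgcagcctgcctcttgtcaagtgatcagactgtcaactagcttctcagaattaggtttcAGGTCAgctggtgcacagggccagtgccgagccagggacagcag
Ucp2: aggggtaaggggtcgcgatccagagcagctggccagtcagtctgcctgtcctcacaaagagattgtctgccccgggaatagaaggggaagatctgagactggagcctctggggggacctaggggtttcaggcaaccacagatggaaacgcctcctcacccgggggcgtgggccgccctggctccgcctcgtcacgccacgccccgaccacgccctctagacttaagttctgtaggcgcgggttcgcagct
Plin2: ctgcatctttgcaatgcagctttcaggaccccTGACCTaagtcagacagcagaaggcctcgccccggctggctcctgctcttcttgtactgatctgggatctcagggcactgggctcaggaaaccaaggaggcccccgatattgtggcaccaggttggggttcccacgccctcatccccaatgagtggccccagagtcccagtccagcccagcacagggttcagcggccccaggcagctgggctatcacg
Fabp3: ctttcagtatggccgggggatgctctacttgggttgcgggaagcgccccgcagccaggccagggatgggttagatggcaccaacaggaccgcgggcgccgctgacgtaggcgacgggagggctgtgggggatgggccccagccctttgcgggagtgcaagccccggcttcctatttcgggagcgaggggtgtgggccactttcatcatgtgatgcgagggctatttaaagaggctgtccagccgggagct

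Ucp3 held 2 AGGTCA motifs, whose first bases lay 149 and 44 bases before the start, and Plin2 held 1, on the opposite strand. RefSeq windows were found for 8 of the 9 genes, 10 windows in all because Pparg has 3, and 4 of the 10, of Ucp3, Plin2 and Pparg, held the motif on either strand. Of all 32851 promoter windows 14.0% held it. A DR1 with at most 2 of its 12 fixed bases changed was found in the windows of Ucp3 and Plin2 and in no other of the 10, against 3.24% of all windows. The matched stretches are written here on the strand of the motif, with the bases that fit the DR1 in capitals.
Ucp3: AGGTttcAGGTCA
Plin2: AGGTCAggGGTCc

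The Ucp3 stretch lies at chr7:100472940-100472952, plus strand, and the Plin2 stretch at chr4:86670272-86670284, plus strand. In Ucp3 it contains the motif nearer to the start. These matches describe letters in a short window and were not tested for binding of a receptor.

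Of the 9 genes, 5 were lower in all 4 unloaded arrays than in any weight bearing array: Angptl4, Fabp3, Ucp3, Plin2 and Ppara. Over all probe sets 12.0% were separated in this direction and 15.5% in the other, in which none of the 9 was. The same 5 genes were past the call rule used for all probe sets (limma adjusted p under 0.05), which 11.0% of probe sets passed as lower and 12.8% as higher. Since these values chose the genes, nothing is read from the counts. The median difference of the 9 was -0.45 on the log2 scale, and that of all probe sets 0.04.

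**Figure D1:**
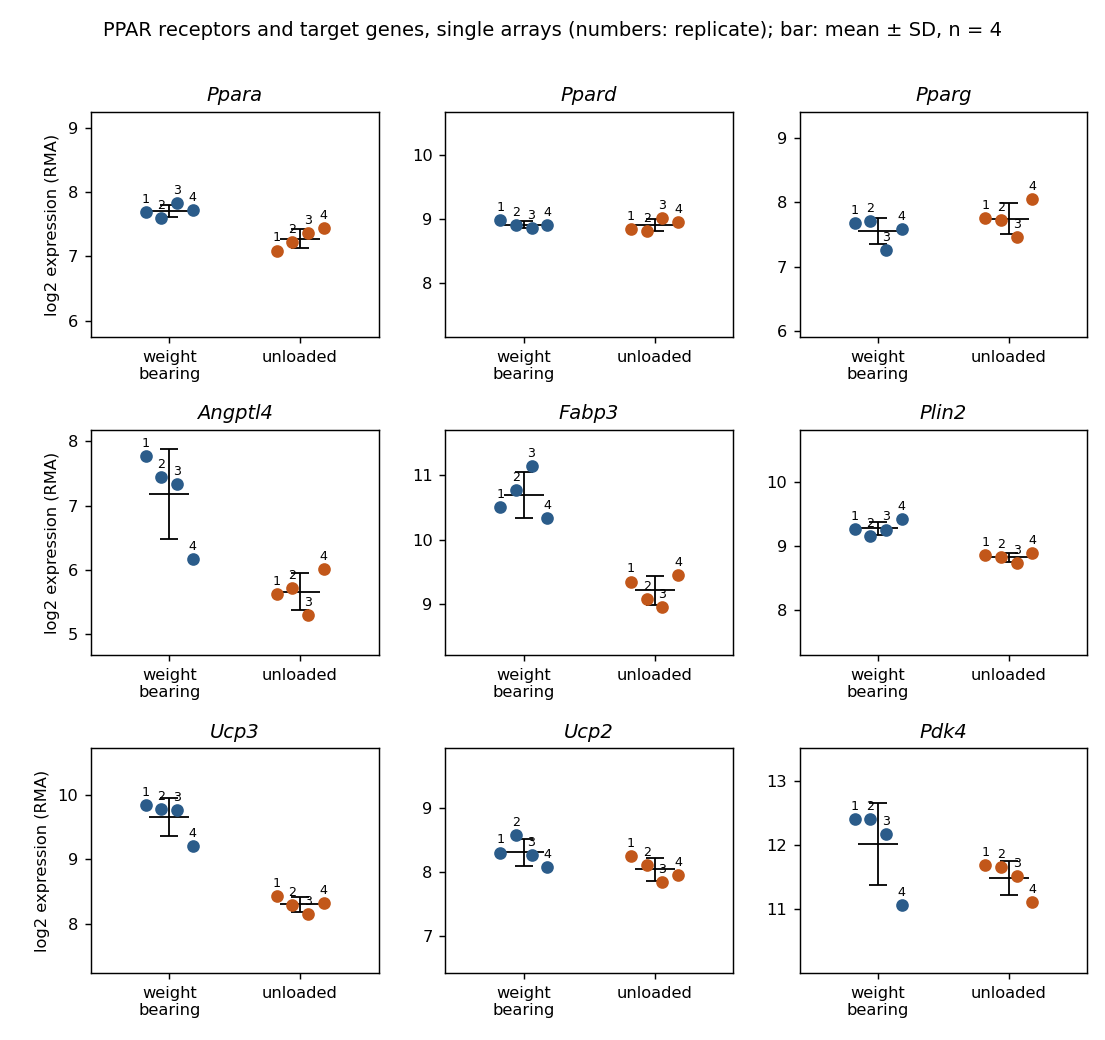
Log2 expression of the 9 genes in each array, 1 panel per gene, with the replicate number above each point and the mean ± SD (n = 4 arrays) of each group as bars. Every panel spans the same number of log2 units. Fabp3 and Ucp3 show the widest space between the groups, and weight bearing replicate 4 lies low for Angptl4, Ucp3 and Pdk4.

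Among the receptors, Ppara was lower after unloading while Ppard and Pparg were not separated. Ppara, the receptor that switches on fat oxidation in fasting, measured 7.09, 7.22, 7.36 and 7.44 in the unloaded arrays and 7.69, 7.59, 7.83 and 7.72 in the weight bearing arrays. The highest unloaded array stayed 0.15 below the lowest weight bearing one, and the difference was -0.43 (standard error 0.08), 1.35-fold lower. Ppard measured 8.84, 8.82, 9.02 and 8.96 in unloaded and 8.99, 8.90, 8.86 and 8.92 in weight bearing muscle. Its group means were nearly equal (difference -0.01, standard error 0.06), and the groups overlapped fully.

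Pparg, the fat cell receptor, measured 7.76, 7.72, 7.46 and 8.05 in unloaded and 7.67, 7.71, 7.26 and 7.58 in weight bearing arrays. The groups overlapped, and the mean was 0.19 higher after unloading (standard error 0.13). Without unloaded replicate 3 the remaining unloaded arrays all lay narrowly above the weight bearing ones (7.72 against 7.71), at a difference of 0.29. The difference was 0.09 without unloaded replicate 4, and 0.09 without weight bearing replicate 3. Pparg was past the call rule at none of these settings. Fat cell markers varied over the same arrays. The mean log2 level of 8 adipocyte markers (Adipoq, Lep, Retn, Cfd, Plin1, Cidec, Fabp4 and Lipe) ran from 8.11 to 9.09 in unloaded and from 8.12 to 8.85 in weight bearing arrays, and 0 of the 8 were called. In the unloaded group both Pparg and these markers were highest in replicate 4 and lowest in replicate 3, and in the weight bearing group both were highest in replicate 2 and lowest in replicate 3. The part of fat tissue in the Pparg values was not tested. In whole muscle, fewer cells of a type and less RNA per cell cannot be told apart.

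Angptl4, Fabp3 and Plin2, which act in the supply, transport and storage of fatty acids, were lower in every unloaded array than in any weight bearing one. Angptl4 encodes a secreted inhibitor of lipoprotein lipase. It measured 5.63, 5.72, 5.30 and 6.02 in unloaded muscle and 7.77, 7.45, 7.33 and 6.18 in weight bearing muscle, a mean difference of -1.52 (standard error 0.29), or 2.86-fold lower. The groups did not overlap, but weight bearing replicate 4 lay only 0.16 above the highest unloaded array. Without it the difference was 3.61-fold.

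Fabp3, the fatty acid carrier of heart and muscle cytosol, measured 9.35, 9.08, 8.96 and 9.45 in unloaded and 10.51, 10.78, 11.15 and 10.33 in weight bearing arrays. The gap of 0.88 between the groups was the widest of the 9 genes, and the difference was -1.48 (standard error 0.17), 2.79-fold lower. Fabp3 is known to be rich in slow, oxidative fibres. Of 7 slow fibre markers 4 were called lower and 0 higher, with mean log2 levels from 9.82 to 10.41 in unloaded and from 10.49 to 10.61 in weight bearing arrays. The 4 were Myl2 (difference -1.02), Myl3 (-0.94), Tnni1 (-0.66) and Tnnt1 (-0.34), and Myh7, the slow myosin heavy chain, was not called (-0.18, limma adjusted p = 0.177). The part of fibre type in the Fabp3 values was not tested.

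Plin2, which coats lipid droplets, measured 8.85, 8.83, 8.73 and 8.90 in unloaded and 9.26, 9.16, 9.26 and 9.42 in weight bearing muscle. Its arrays lay close together in each group (SD 0.07 and 0.11), and the difference of -0.45 (standard error 0.06), 1.36-fold lower, left a gap of 0.27 between the groups. Plin2 was the 1 gene of the 9 with its highest level in weight bearing replicate 4.

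Of the 2 mitochondrial uncoupling proteins, which lie next to each other in the genome, the muscle form was separated over all 8 arrays and the widespread form was not. Ucp3, carried in the inner mitochondrial membrane of muscle, measured 8.44, 8.28, 8.15 and 8.32 in unloaded and 9.85, 9.78, 9.76 and 9.21 in weight bearing arrays. The difference was -1.35 (standard error 0.13), 2.55-fold lower, with a gap of 0.78 between the groups. Ucp2, found in many cell types including macrophages, measured 8.25, 8.12, 7.84 and 7.95 in unloaded and 8.30, 8.58, 8.26 and 8.08 in weight bearing arrays. Its groups overlapped, with a difference of -0.26 (standard error 0.11). Without weight bearing replicate 4 the groups of Ucp2 were narrowly apart too, at a difference of -0.34, and Ucp2 was still not past the call rule. Of 8 macrophage markers 5 were called lower and 0 higher, with mean log2 levels from 7.09 to 7.36 in unloaded and from 7.51 to 7.76 in weight bearing arrays. Their part in the Ucp2 values was not tested. Whether the unloading differences of Ucp3 and Ucp2 differ from each other was not tested either, because both were chosen on this contrast.

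Pdk4, the kinase that shuts off pyruvate dehydrogenase and so spares glucose, measured 11.69, 11.66, 11.51 and 11.11 in unloaded muscle and 12.41, 12.41, 12.18 and 11.07 in weight bearing muscle. Of the 4 weight bearing arrays, 3 lay above every unloaded array and replicate 4 lay below all of them, so the groups overlapped, with a difference of -0.52 (standard error 0.27). Without weight bearing replicate 4 the groups were apart, the difference was -0.84 (1.79-fold lower) and Pdk4 passed the call rule, as did 2105 of the 21212 probe sets in the lower direction at that setting. It also passed with the replicate number as a block, where 2213 probe sets were called lower. With any other single array left out, the difference of Pdk4 ran from -0.59 to -0.39, and Pdk4 did not pass the call rule.

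Weight bearing replicate 4 thus held the lowest weight bearing level of Angptl4, Fabp3, Ucp3, Ucp2 and Pdk4, 5 of the 9 genes. Over all probe sets it was the lowest weight bearing array in 22.7%. Among 22 genes of mitochondrial beta-oxidation, it was the lowest in 15 (68.2%), among them Cpt1a with 7.83 against 8.26 to 8.32 in the other weight bearing arrays. Over the 110 genes of all wider lists it was lowest in 42 (38.2%). Its mean marker levels were 12.81 for muscle fibres, 10.58 for slow fibres, 8.78 for adipocytes, 7.51 for macrophages, 8.35 for endothelium and 9.40 for fibroblasts. The muscle fibre value was the lowest of the weight bearing group, and the other values lay within the range of the other weight bearing arrays. Without this array the unloaded level was 2.83-fold lower for Ucp3 and 3.04-fold lower for Fabp3. In the unloaded group, replicate 3 was lowest in 6 of the 9 genes and in 17.6% of all probe sets. The labels give weight bearing replicate 4 no treatment of its own, and the cause was not tested.

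**Figure D2:**
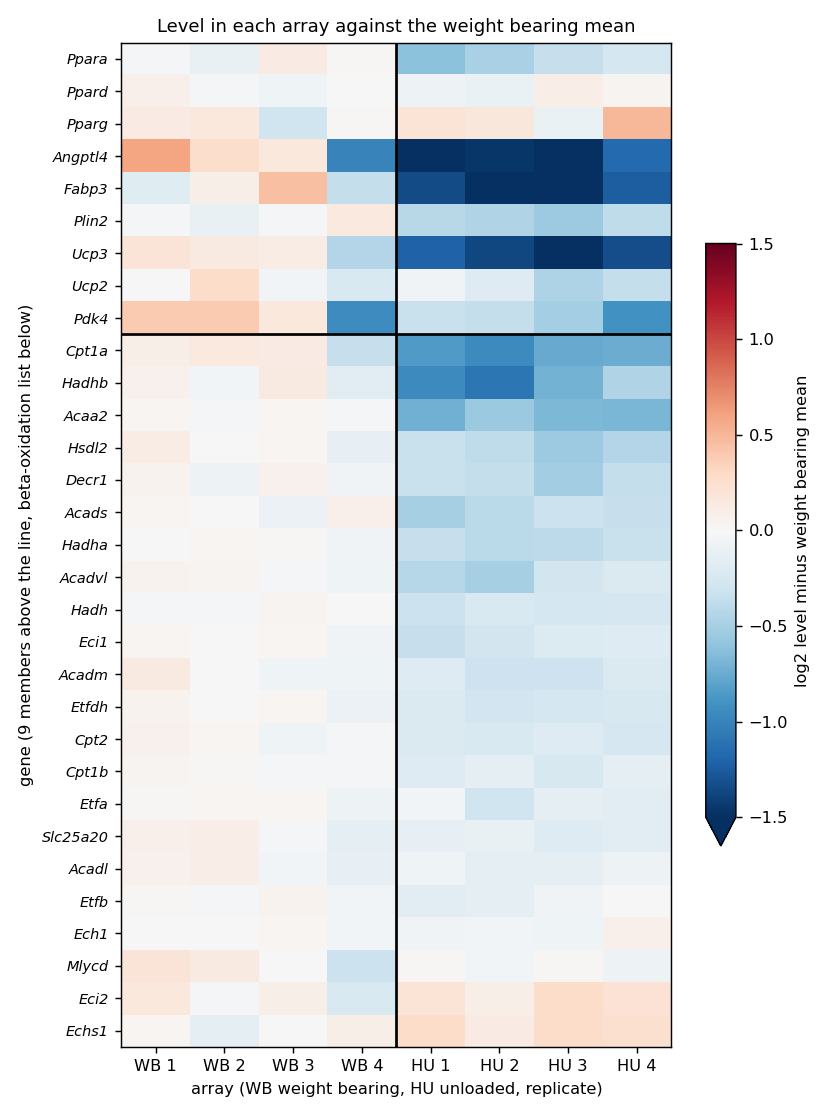
Colour map of the log2 level in each array minus the weight bearing mean of that gene, for the 9 genes (above the line) and 22 beta-oxidation genes (below it, ordered by their difference), with 4 weight bearing (WB) and 4 unloaded (HU) arrays as columns. Blue is lower, and differences beyond -1.5 share the darkest blue. In the column WB 4 Angptl4 and Pdk4 are about as blue as in the column HU 4.

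The genes whose 8 array values ran closest to each of the 3 most changed genes were found by the root mean square difference of log2 levels, each gene set against its own weight bearing mean. Nearest to Angptl4 were Ucp3 (0.314), Atp1b4 (0.378) and Fabp3 (0.392). Nearest to Fabp3 were Ucp3 (0.226), Mfap4 (0.257) and Fbn1 (0.262), and nearest to Ucp3 were Fbn1 (0.124), Wif1 (0.171) and Vcan (0.173). Fbn1 and Vcan encode fibrillin and versican, proteins of the extracellular matrix. Of 7 fibroblast markers 5 were called lower and 0 higher. Their mean log2 levels ran from 8.21 to 8.41 in unloaded and from 9.37 to 9.62 in weight bearing arrays. The part of fibroblasts in the Ucp3 and Fabp3 values was not tested. The measure covers 8 arrays that fall into 2 groups and includes the group difference itself, and the named genes that are not among the 9 were all lower after unloading, with log2 differences from -1.38 (Mfap4) to -1.12 (Atp1b4).

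The other genes of the pathway were listed by function and tested with limma over all probe sets. They formed 6 lists of 110 genes in all, each gene counted once and each measured. Of the 110, 32 were lower and 18 higher at an adjusted p under 0.05, against 11.0% and 12.8% of all probe sets. With 1 array left out, 28 to 35 were lower and 12 to 18 higher, and the lowest count of higher genes came without weight bearing replicate 2. The lists were drawn up with earlier results of these data known, so their counts are a description. The beta-oxidation list alone held 14 of the 32 lower genes. The same shares of all probe sets apply to the counts of each list below.

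**Figure D3:**
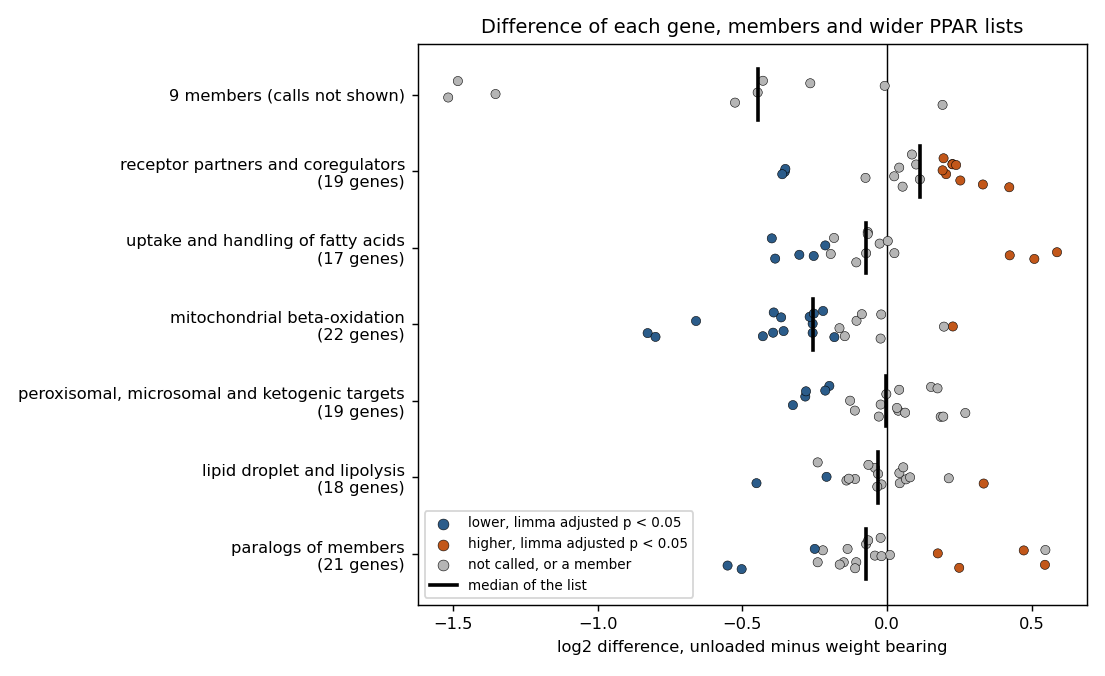
Log2 difference (unloaded minus weight bearing) of each of the 9 genes and of each gene of 6 wider lists, 1 point per gene, with the list median as a bar. Blue and orange points passed limma's adjusted p under 0.05, and the 9 genes are drawn in grey without their calls. The beta-oxidation list lies furthest to the left of the wider lists, with a median of -0.25, and receptor partners and coregulators have a median of 0.11.

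Receptor partners and coregulators moved in both directions, 3 lower and 9 higher of 19. Rxrg, the RXR isotype best known from muscle, fell from 10.09 ± 0.07 to 9.73 ± 0.09 (mean log2 level ± SD, n = 4 arrays each), 1.28-fold (limma adjusted p = 0.00228). It measured 9.86, 9.72, 9.71 and 9.65 in unloaded and 10.08, 10.05, 10.19 and 10.03 in weight bearing arrays, so the groups were apart. Rxra rose 1.15-fold (adjusted p = 0.0202), a call that was lost without unloaded replicate 3 (adjusted p = 0.0557) or without weight bearing replicate 3 (0.0503). Rxrb was not called (difference 0.04, adjusted p = 0.516). The isotypes of the common partner thus did not all move one way.

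The coactivators that link PPARs to the making of mitochondria were both lower. Ppargc1a, which encodes PGC-1 alpha, measured 9.33, 9.19, 9.44 and 9.29 in unloaded and 9.69, 9.61, 9.76 and 9.59 in weight bearing arrays, and fell 1.28-fold (limma adjusted p = 0.00356). Ppargc1b fell 1.28-fold as well (adjusted p = 0.0185). It lost its call in the methods' t-test, run here with unequal variances (0.102). Lpin1, a phosphatidate phosphatase that also works as a coactivator of PPARs, was the most raised of the list with 1.34-fold (adjusted p = 0.00250). Among the others that were higher were Rxra and the coregulators Nrip1, Sirt1, Ncoa3, Crebbp, Hdac3 and Tbl1xr1. Of these Nrip1, Hdac3 and Tbl1xr1 are best known from repression, and Ncoa3 and Crebbp from activation. By the methods' t-test 4 of the 19 were higher in place of 9, and with a minimum change of 1.2-fold 2 were. Over all probe sets the higher calls also fell at these settings, from 2715 to 1393 and 1244.

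**Figure D4:**
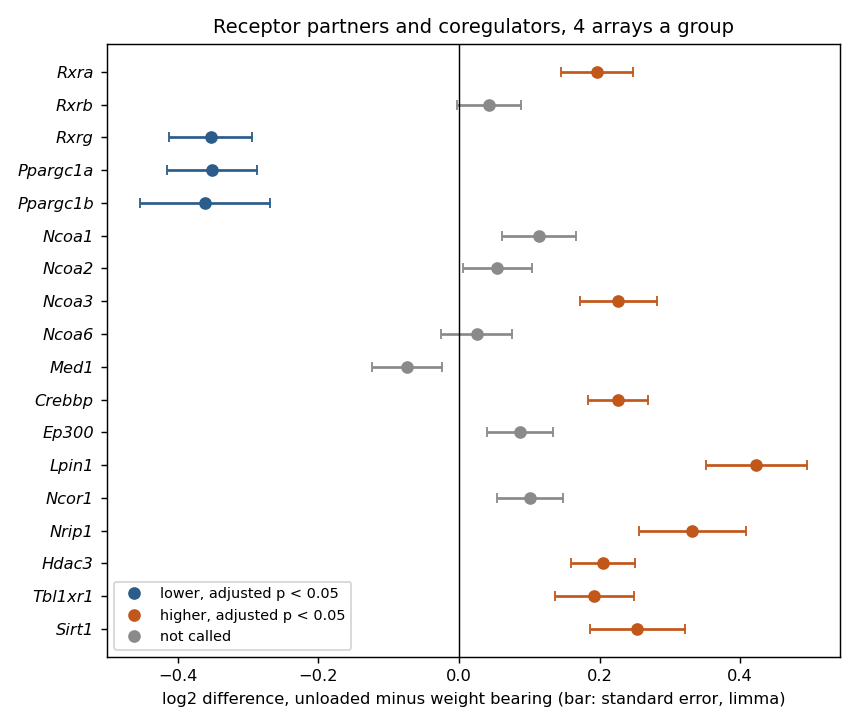
Log2 difference (unloaded minus weight bearing) of the receptor partners and coregulators that are reported by name, with the standard error of the limma fit as bars (4 arrays a group). Rxrg, Ppargc1a and Ppargc1b lie near -0.35, and Lpin1 lies furthest to the right at 0.42.

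Mitochondrial beta-oxidation, the stepwise breakdown of fatty acids, was lowered in 14 of 22 genes and raised in 1 (median log2 difference -0.25). Cpt1a, which makes the acylcarnitines that enter mitochondria, measured 7.32, 7.22, 7.42 and 7.43 in unloaded and 8.26, 8.32, 8.30 and 7.83 in weight bearing arrays. It fell 1.77-fold (limma adjusted p = 4.7e-04), with the groups apart. Hadhb, the beta subunit of the trifunctional protein, fell 1.74-fold (adjusted p = 0.00157), Acaa2, the thiolase of the last step, 1.58-fold (2.1e-05), and Hsdl2 1.35-fold (0.00130). The muscle isoform Cpt1b fell by a smaller amount, 1.13-fold (adjusted p = 0.0181). Echs1 was the 1 raised gene, at 1.17-fold (adjusted p = 0.0216), and lost its call without unloaded replicate 3, unloaded replicate 4 or weight bearing replicate 2, and in the methods' t-test. The choice of Cpt1b and Echs1 was made with their values known.

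Uptake and activation of fatty acids gave 5 lower and 3 higher of 17 genes. The very low density lipoprotein receptor Vldlr rose most, with 10.47, 10.59, 10.38 and 10.26 in unloaded and 9.74, 9.84, 9.85 and 9.92 in weight bearing arrays (difference 0.59, limma adjusted p = 4.2e-04). Among the acyl-CoA synthetases, which activate fatty acids, Acsl6 rose 1.42-fold (adjusted p = 1.5e-04) and Acsl3 1.34-fold (0.00323), while Acsl5 fell 1.32-fold (9.1e-04) and Acsl1 1.19-fold (0.0351). Lpl, the lipase that Angptl4 inhibits, was lower by 1.23-fold (adjusted p = 9.7e-04), and Cd36, the fatty acid translocase, was not called (difference -0.07, adjusted p = 0.476). The choice of Lpl, Cd36 and Acsl1 was made with their values known.

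Of 19 peroxisomal, microsomal and ketogenic targets 5 were lower and 0 higher (7 had an unadjusted p under 0.05, of which 2 were higher). Both of those 2 were among the dimmest 25% of probe sets, without which 14 of the 19 genes remained. Hsd17b4, the multifunctional enzyme of peroxisomal beta-oxidation, fell 1.25-fold (limma adjusted p = 0.0152). Abcd3, a peroxisomal membrane transporter, fell 1.22-fold (0.00237), the hydrogen peroxide scavenger Cat 1.21-fold (0.0150) and the thioesterase Acot8 1.16-fold (0.0320). Hsd17b4 and Cat lost their calls in the methods' t-test, and Acot8 lost its call in 9 of the alternative settings. The remaining gene was the transporter Abcd2. Abcd3 kept its call under every alternative run. The methods' t-test called 1 gene of this list lower in place of 5, and limma called 3 without unloaded replicate 3, unloaded replicate 4, weight bearing replicate 1 or weight bearing replicate 4.

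The lipid droplet list, which held the neighbours of Plin2 in function, gave 2 lower and 1 higher of 18 genes. Of all probe sets 11.0% were called lower and 12.8% higher, so nothing is read from the counts of this list. Mgll, the lipase of the last step of fat breakdown, fell 1.37-fold (limma adjusted p = 0.00360), and Fitm1, a protein of droplet formation, 1.16-fold (0.0134). Pnpla2, the lipase of the first step, rose from 10.81 ± 0.09 to 11.14 ± 0.05 (mean log2 level ± SD, n = 4 arrays each), 1.26-fold (adjusted p = 0.00238). The mRNA levels of the first and the last enzyme of lipolysis thus moved in opposite directions. Lipe, a further lipase of the list, was not called (difference 0.04, limma adjusted p = 0.790). The other perilipins Plin1, Plin3, Plin4 and Plin5 were not called, Plin5 with a difference of -0.24 (adjusted p = 0.190).

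Paralogs of the target genes gave 3 lower and 4 higher of 21. Of all probe sets 11.0% were called lower and 12.8% higher, and nothing is read from the counts of this list. Beside Angptl4, the related Angptl2 fell 1.46-fold (limma adjusted p = 0.00185) and Angptl1 1.42-fold (0.00333, and 0.0504 in the methods' t-test), and Angptl7 rose 1.46-fold (0.0192) with overlapping groups. Angptl7 lost its call without unloaded replicate 2 (adjusted p = 0.0525), unloaded replicate 4 (0.0531) or weight bearing replicate 2 (0.0506). Beside Ucp3, the brain uncoupling protein relative Slc25a27 rose 1.39-fold (adjusted p = 1.8e-04), with 8.22, 8.20, 8.28 and 8.32 in unloaded and 7.86, 7.80, 7.72 and 7.74 in weight bearing arrays, and Slc25a14 was called higher too. Beside Pdk4, Pdk1 was called lower (difference -0.25), Pdk2 higher (0.18) and Pdk3 was not called. The 5 measured relatives of Fabp3, which are Fabp1, Fabp2, Fabp4, Fabp5 and Fabp7, were not called in either direction. Of these, Fabp1, Fabp2 and Fabp5 were among the dimmest 25% of probe sets. Without weight bearing replicate 4 the paralogs called lower were 5 in place of 3, and those called higher were 2 without unloaded replicate 3, unloaded replicate 4 or weight bearing replicate 1, and 1 without weight bearing replicate 2.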

How the data were processed

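Total RNA of 4 unloaded and 4 weight bearing mice was hybridised to Affymetrix Mouse Gene 1.0 ST arrays, 1 mouse per array. The authors applied RMA with a custom probe set definition and deposited log2 values for 21212 probe sets. The labels and methods name neither its release nor its genome build. The values were used as deposited. All 8 sample columns entered and 0 were left unused. Symbols came from the platform annotation (18786 probe sets) or from the row's Entrez ID in RefSeq (1917, Ucp2 among them), and of several probe sets of a gene the one with the highest mean was taken (3 genes). Array medians lay between 6.28 and 6.33, correlations were 0.996 to 0.997 within groups and 0.992 to 0.994 between them, and 0 pairs were identical. The number of arrays limits the precision.

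The members and lists were chosen with earlier results of these data known. The members are therefore described without p-values, and their calls are given only as counts or as changes of a call beside an alternative. Other genes were compared with limma 3.58.1 in R 4.3.3 (lmFit and eBayes, two-sided), with Benjamini-Hochberg adjustment over all probe sets and a threshold of 0.05, after the script was tested on simulated data. The methods' t-test was kept as an alternative, run here with unequal variances and Benjamini-Hochberg adjustment. The methods do not state the variance choice, so its calls need not be those of the study. Further alternatives were a t-test with equal variances, other variance models, array weights, filters on dim probe sets, and quantile and median normalization. A replicate block, a minimum of 1.2-fold and leaving out each array were also run. All members were named, and of each list all genes past the threshold where these were at most 4, otherwise the 4 with the largest absolute difference, with Rxra, Rxrb, Rxrg and Ppargc1a whatever their result, and for 3 members the 3 genes with the nearest array values. Genes of the lists named beyond this rule were chosen after seeing the values. Promoter windows were the 250 bases before each RefSeq start (GRCm38.p6), searched for AGGTCA on both strands, so a DR1 match can contain it. Angptl4 has no window here. Some genes of the lists are counted but not reported by name.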

Additional observations from a re-analysis of the deposited data

Results flagged for a closer look

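In 68 groups of 4 arrays (34 genes in both conditions), the highest or lowest array was compared with the rest of its group by Dixon's ratio, against its critical value for 4 samples, which chance passes in about 1 of 20 groups. It was passed 5 times, each time in the weight bearing group. Ucp3 was lowest in weight bearing replicate 4, with a log2 level of 9.213 against 9.762 to 9.846 in the other 3 arrays (ratio 0.867). Cpt1a was lowest in the same array, with 7.83 against 8.26 to 8.319 (0.878). Angptl2 was highest in that array, with 10.17 against 9.838 to 9.892 (0.837). Abcd3 was highest in weight bearing replicate 3, with 9.098 against 8.972 to 8.992 (0.844). Angptl1 was lowest in weight bearing replicate 3, with 7.637 against 7.967 to 8.033 (0.833).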

How the results depend on the processing

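The differences of the 9 genes moved by less than 1 SD between replicates under every alternative run (108 of 108 values). Leaving out 1 of 4 arrays cannot move a difference that far, so those values had to pass and say nothing of stability. The genes past the call rule numbered 5, with 4 in the methods' t-test (without Angptl4), 6 with the replicate number as a block (with Pdk4) and 5 to 6 with 1 array left out. Separated groups numbered 5 to 7 with 1 array left out. The wider lists had 32 genes called lower and 18 higher. With a minimum of 1.2-fold these were 21 and 8, since the rule asks for more, and in the methods' t-test 24 and 10. Over all probe sets the lower and higher calls were 2324 and 2715. They were 1558 and 1244 with a minimum of 1.2-fold, and 1374 and 1393 in the methods' t-test. With 1 array left out, 28 to 35 were lower and 12 to 18 higher. Per list, a minimum of 1.2-fold left 3 lower uptake genes (of 5), 9 lower beta-oxidation genes (of 14), 3 lower peroxisomal genes (of 5) and 1 lower lipid droplet gene (of 2), and 2 higher paralogs (of 4). A t-test with equal variances gave 2 lower peroxisomal genes and 2 higher paralogs. Without unloaded replicate 1 or 3, 1 peroxisomal gene was called higher. Of 450 values of named genes in the wider lists, 426 kept their side of the threshold, 24 lost it and 0 turned. Ppargc1b, Hsd17b4, Cat, Angptl7 and Angptl1 lost it in the methods' t-test, and Acot8 in 9 settings. The causes were not tested.

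Same-numbered arrays of the groups correlated only at 0.0242 to 0.12 in their deviations, though 3 of 4 matched their own number best. These values do not decide whether the numbers mark pairs. The labels name no pairs, so the main fit used none and the replicate number was a block in an alternative only. With the replicate block 30 genes were called lower, 18 higher, and 3 peroxisomal genes were lower in place of 5.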

Other observations

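Ucp1, the uncoupling protein of brown fat, was chosen after its values were seen. It measured 6.35 on the log2 scale in unloaded replicate 4, and 4.20, 4.17 and 4.36 in the other unloaded and 4.33, 4.21, 4.12 and 4.23 in the weight bearing arrays (limma adjusted p = 0.349). The same unloaded array had the highest level of the fat cell hormones Adipoq (8.95) and Lep (7.49) in its group. Lep measured 6.95, 7.40, 5.47 and 7.49 in unloaded and 5.95, 6.22, 5.29 and 6.59 in weight bearing arrays, with overlapping groups (adjusted p = 0.180).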
